A study of Mus musculus with 3 samples.

Results

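Chemokine and sphingosine 1-phosphate (S1P) receptors tell a lymphocyte where to go. The 10 genes described here are the rows named Ccr1, Ccr6, Ccr7, Cxcr3, Cxcr4, Cxcr5, S1pr1, S1pr2, S1pr3 and S1pr4. They were chosen by gene name and are 10 of 24901 gene rows. Their mRNA was measured in CH12 cells, a mouse B lymphoma line cultured in RPMI-1640 medium with serum. The 3 groups were a control, cells given TGFb (transforming growth factor beta) at 5 ng/ml for 6 h, and cells given the same dose for 24 h. Each group was 1 library, the line was the same in all of them, and the labels name no other agent, allele or genotype. The time at which the control was harvested is not given in the sources used here, so time in culture and treatment cannot be told apart.

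The receptors are G protein-coupled receptors with 7 membrane-spanning segments, and most of them signal through Gi proteins. A chemokine made by stromal or inflammatory cells binds its receptor and the cell moves up the gradient. In lymphoid organs Cxcr5 draws B cells into follicles, Ccr7 draws them to the T cell zone, and Cxcr4 holds them in the bone marrow and in the dark zone of germinal centres. S1P is abundant in blood and lymph and scarce inside tissue, and S1pr1 lets lymphocytes leave along that difference. TGFb acts on B cells through Smad proteins and is known for directing class switching to IgA.

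Library totals were 51386096 counts (control), 64229808 (6 h) and 27487231 (24 h), so a single count was worth 0.0206, 0.0155 and 0.0345 CPM (counts scaled to library size, after TMM factors). With 1 library a group there was no error between cultures and no test. A gene was called higher or lower where the libraries were at least 2-fold apart and the higher one held at least 1 CPM and 30 counts. The range in brackets after a fold is its exact 95% interval from the read counts, which covers counting error only. Reads that carry no molecular identifier are not separate molecules, so that error may be larger than the interval shows. A gene was measured if 1 library reached that minimum, which 10754 genes did. The markers of B cells summed to 1666 CPM (control), 1655 CPM (6 h) and 1901 CPM (24 h), with 8 of 8 measured and 0 called in any comparison. In bulk libraries, more cells with an mRNA and more mRNA per cell cannot be told apart.

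At 6 h, 5 of the 10 genes were called higher and 0 lower. Of all measured genes, 2.4% were called higher and 0.363% lower in that comparison, 2.76% in all. The 5 were Ccr1, Ccr6, Cxcr3, Cxcr4 and S1pr4. At 24 h, 5 were called higher (Ccr1, Ccr6, Cxcr4, Cxcr5 and S1pr4) and 1 lower (S1pr3). The shares of all measured genes at 24 h were 7.41% higher and 2.02% lower, 9.43% in all. The 10 genes reached the measured minimum, but Cxcr3 and S1pr4 did so only through treated libraries, where they were higher than in control. The 2 comparisons share the control library.

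The median log2 ratio of the 6 chemokine receptors was 1.85 at 6 h and 2.03 at 24 h. For the 4 S1P receptors it was -0.15 and -0.39, beside -0.0046 and -0.01 for all measured genes. Between the treated libraries, Ccr1 was the 1 receptor called (higher at 24 h) and 0 were lower. All measured genes gave 1.88% higher and 0.372% lower there, 2.25% in all.

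**Figure D1:**
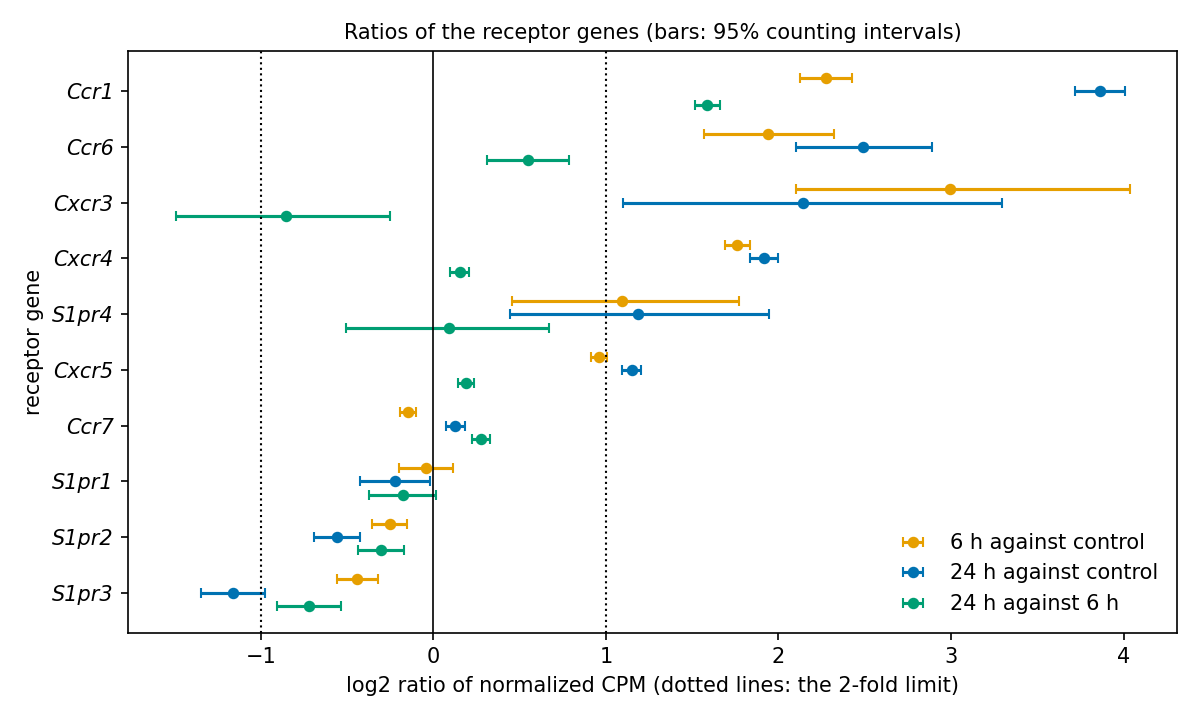
Log2 ratio of each receptor gene at 6 h and at 24 h against control, and at 24 h against 6 h, from TMM-scaled counts. Bars give the 95% counting interval, with 1 library per group. Against control, Ccr1 stands furthest right at 24 h (log2 3.86), S1pr3 furthest left (log2 -1.16), and Ccr7 and S1pr1 lie close to 0 at both times.

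Levels between genes were compared per length, as deposited TPM (a share of all transcripts). In control, Ccr7 led with 109 TPM, followed by Cxcr5 with 59.4, Cxcr4 with 33.0 and S1pr2 with 17.9. S1pr3 (8.12), S1pr1 (6.31), Ccr1 (4.90) and Ccr6 (1.73) came next, and S1pr4 (0.38) and Cxcr3 (0.23) were last. Of the neighbours in that order, S1pr4 and Cxcr3 alone had counting intervals that overlapped. At 6 h Cxcr5 (129 TPM) and Cxcr4 (125) overlapped at the top, above Ccr7 (110), and Ccr1 with 26.5 TPM stood above the S1P receptors. At 24 h Cxcr4 (150 TPM) overlapped with both Cxcr5 (158) and Ccr7 (143). The intervals of Cxcr5 (154 to 162) and Ccr7 (139 to 147) lay apart, and Ccr1 with 85.7 TPM was 4th. The top of the list thus held 1 receptor in control and 3 at similar levels at 24 h.

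The 6 chemokine receptors together had 208 TPM in control, 399 at 6 h and 550 at 24 h. The 4 S1P receptors had 32.7, 31.2 and 26.5 TPM. Against control, TPM shifted the median gene up by 0.16 at 6 h and 0.26 at 24 h on the log2 scale. In TMM-scaled CPM, which are not per length, the sums were 278, 485 and 638 for the chemokine receptors. For the S1P receptors they were 68.6, 57.4 and 44.2 CPM. The S1P receptors made up 13.6%, 7.24% and 4.61% of the TPM of the 10 genes. Ccr1 made up 2.04% of it in control and 14.9% at 24 h, while Ccr7 made up 45.1% and 24.8%.

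**Figure D2:**
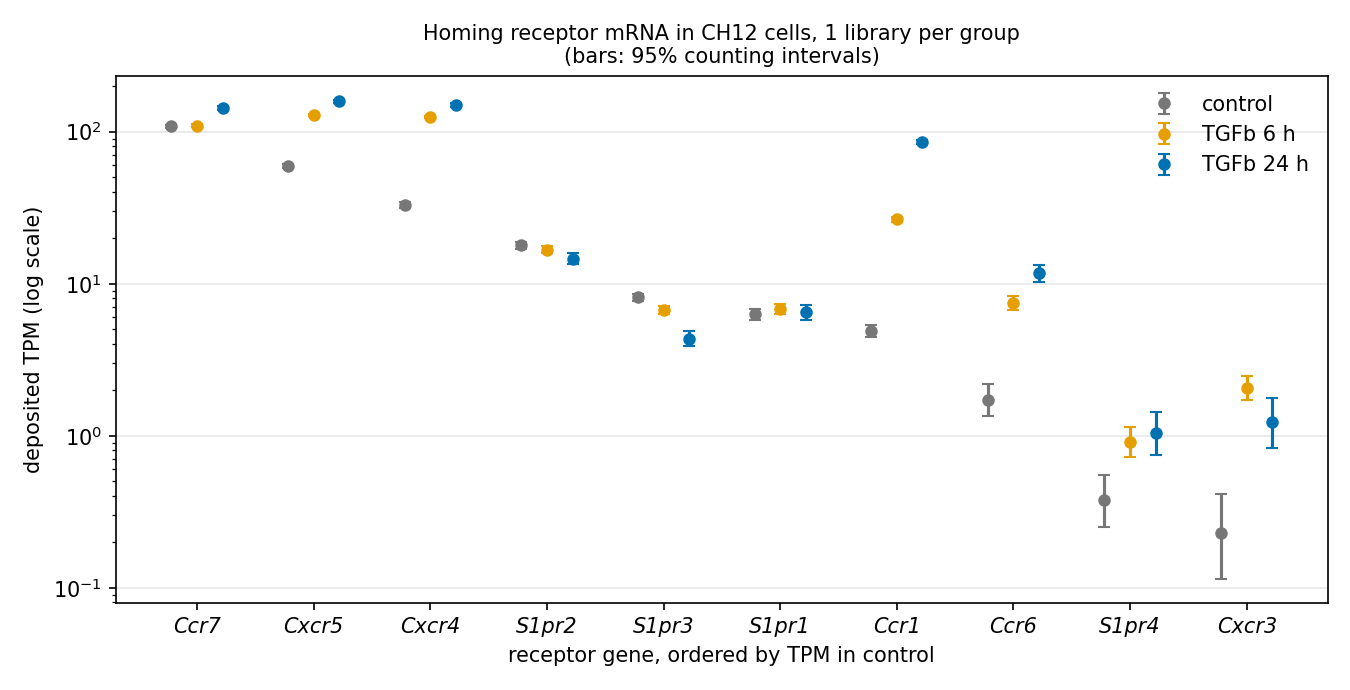
Deposited TPM (log scale) of the 10 receptor genes in the control, 6 h and 24 h libraries, 1 point per library, with bars for the counting interval. Ccr1 runs from 4.90 to 85.7 TPM, Cxcr4 and Cxcr5 reach the level of Ccr7, and S1pr2 and S1pr3 step down.

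RefSeq start-site windows (GRCm38.p6, 250 bases before to 50 bases from the start) matched 7 of the 10 genes, with 8 windows in all. They were searched on both strands for letters bound by Smad proteins and by NF-kappaB. These were the palindromic Smad box GTCTAGAC, the shorter Smad element CAGACA, the GC-rich Smad letters GGCGC or GGCCG, and a kappaB motif (GGGA, any pair of bases, then TTCC), and matches may overlap each other. The 250 upstream bases of Ccr1, Cxcr4 and S1pr3 are shown because they are the receptor with the largest fold at 24 h, an abundant receptor that was higher, and the one called lower. They run 5′ to 3′ on the gene's strand, and capitals mark matches. They lie at chr9:123968693-123968942 (minus strand), chr1:128592300-128592549 (minus strand) and chr13:51408368-51408617 (plus strand).
Ccr1: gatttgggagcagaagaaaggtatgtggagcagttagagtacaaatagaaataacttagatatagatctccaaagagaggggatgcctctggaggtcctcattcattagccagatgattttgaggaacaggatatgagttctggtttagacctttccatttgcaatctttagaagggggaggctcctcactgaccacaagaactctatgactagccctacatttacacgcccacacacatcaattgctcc
Cxcr4: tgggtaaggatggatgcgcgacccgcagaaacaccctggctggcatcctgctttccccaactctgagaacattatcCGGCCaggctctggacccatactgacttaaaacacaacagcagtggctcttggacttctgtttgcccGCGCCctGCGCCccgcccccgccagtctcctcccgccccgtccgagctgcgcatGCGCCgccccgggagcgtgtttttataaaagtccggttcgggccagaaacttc
S1pr3: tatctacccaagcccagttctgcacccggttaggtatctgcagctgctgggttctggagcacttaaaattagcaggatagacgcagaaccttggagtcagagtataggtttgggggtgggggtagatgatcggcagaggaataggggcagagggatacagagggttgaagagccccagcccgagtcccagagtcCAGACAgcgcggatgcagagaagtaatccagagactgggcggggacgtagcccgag
The Ccr1 window held no match. The Cxcr4 window held 4 GC-rich matches, the first at -174 to -170 and the last at -53 to -49 from the start. The S1pr3 window held 1 CAGACA at -56 to -51. The windows of Ccr6, Cxcr3 and S1pr4 held no match to the letters searched, and that of S1pr2 held 5 GC-rich matches. Other forms of these motifs were not searched, so a window without a match may still hold one. Of 32851 such windows in the table, 48.3% held the GC-rich letters, 21.0% CAGACA, 1.47% the kappaB motif and 0.213% the palindrome, so the letters found were common ones. A match is a run of letters and not a measured binding site.

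Ccr1, a receptor for the inflammatory chemokines Ccl3 and Ccl5 that is best known from monocytes and neutrophils, had the largest fold of the 10 at 24 h. It lies on chromosome 9 at 123962126 to 123968692, with its coding sequence in 1 exon. Its level was 8.83 CPM in control (429 counts), 42.7 CPM at 6 h (2747 counts) and 128 CPM at 24 h (3725 counts). The 3 libraries were thus in the order control, 6 h, 24 h with wide gaps. Ccr1 was 4.84-fold higher at 6 h (4.37 to 5.37) and 14.5-fold higher at 24 h (13.2 to 16.1). Those folds ranked 41 and 23 from the highest of 10754 measured genes. From 6 h to 24 h the fold was 3.01 (2.86 to 3.16). Set over Ccr7 in the same library, which removes the scaling, its TPM ratio was 0.0451 in control, 0.242 at 6 h and 0.599 at 24 h.

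Ccr1 sits in a cluster of chemokine receptor genes on chromosome 9. From 200 kb on its low-coordinate side to 150 kb on the other, RefSeq places 8 coding genes, from Ccr9 (start 123767211) to Ccr2 (end 124109140), and 4 of them were measured. The 4 (Ccr1, Fyco1, Xcr1 and Cxcr6) were called higher at 24 h, as were 7.41% of all measured genes. Cxcr6 passed the minimum only through the 24 h library, and neither Xcr1 nor Cxcr6 was called with a minimum of 5 CPM. Xcr1, the receptor of Xcl1, had 1.5, 2.53 and 3.76 CPM, 2.5-fold higher at 24 h (1.84 to 3.41). Fyco1, which adapts autophagosomes to motors, had 16.8, 26.6 and 39.4 CPM, 2.35-fold higher at 24 h (2.14 to 2.57). Fyco1 was not called once a trend of ratio with gene length was taken out. Cxcr6, the receptor of Cxcl16, lies inside the bounds of Fyco1 and had 0.761, 0.824 and 2.1 CPM, 2.76-fold higher at 24 h (1.81 to 4.27). The strand setting of the counting is not given in the sources used here, so reads from overlapping parts cannot be told apart. Ccr9, Ccr1l1, Ccr3 and Ccr2 stayed below the minimum, with 5, 4, 9 and 14 counts at 24 h.

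**Figure D3:**
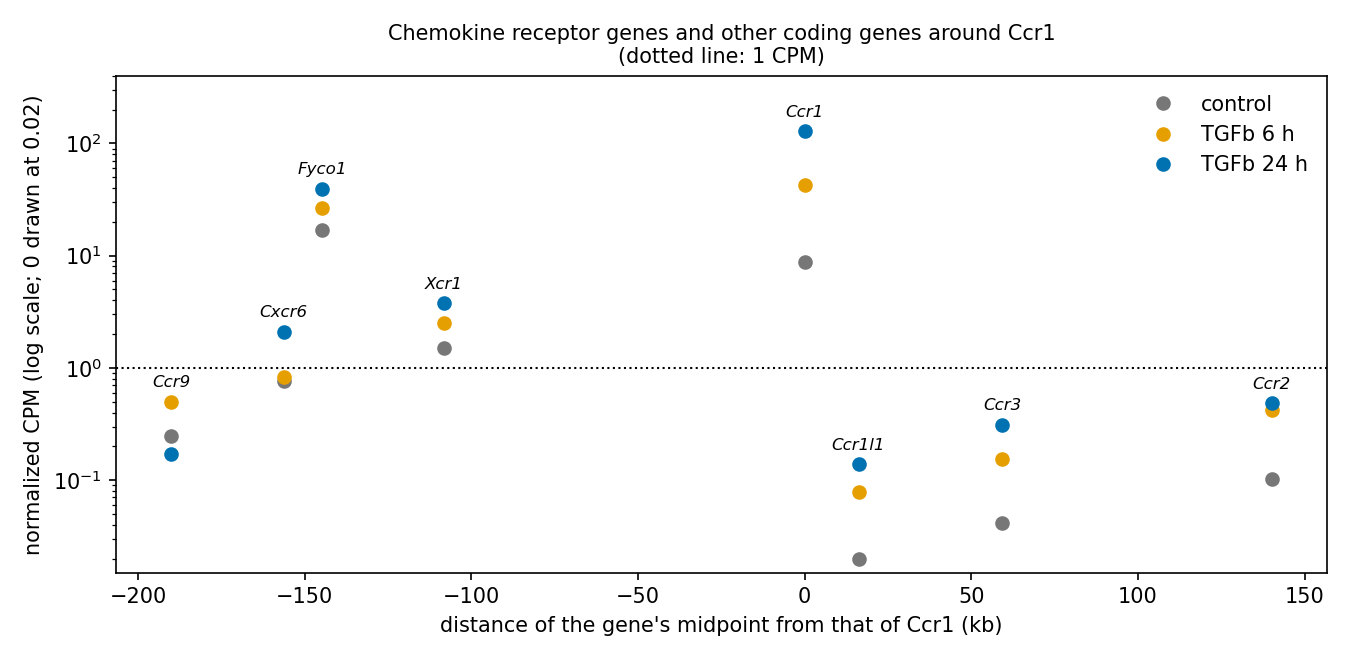
Normalized CPM (log scale, 1 CPM dotted) of 8 coding genes from 200 kb below to 150 kb above Ccr1, by distance of their midpoints in kb, in the 3 libraries. Ccr1 reaches 128 CPM at 24 h, Fyco1 39.4 CPM, and the other chemokine receptor genes stay under 5 CPM.

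Because Ccr1 is a myeloid receptor, myeloid markers were read beside it. They summed to 11.5, 20.1 and 42.1 CPM in the control, 6 h and 24 h libraries, with 3 of 9 measured (Csf1r, Adgre1 and Itgam) and these 3 called higher at 24 h. Adgre1 had 2.04, 2.5 and 12.9 CPM, Csf1r 8.33, 16.4 and 25.8 CPM, and Itgam 0.864, 0.902 and 3.24 CPM, so the 24 h library was the highest for each. Itgam passed the minimum only through the 24 h library. The other 6 stayed below the minimum. S100a8 had 0 counts in each library, and Lyz2 had 6, 0 and 0 counts. Markers of dendritic cells summed to 13.4, 17.0 and 24.8 CPM, with 5 of 5 measured and 3 higher and 1 lower at 24 h. Among them Itgax, the integrin CD11c, had 0.535, 1.46 and 10.4 CPM, with part of its reads split between genes, and Flt3 had 3.02, 2.07 and 0.827 CPM. Itgax passed the minimum only through treated libraries. Markers of fibroblasts and endothelium summed to 3.70, 7.57 and 13.1 CPM, with 3 of 7 measured and 3 higher at 24 h. With a minimum of 5 CPM, 2 myeloid, 1 dendritic and 1 fibroblast or endothelial marker were called higher at 24 h, and 0 dendritic markers lower. T cell markers summed to 62.2, 116 and 104 CPM, nearly all of it Cd5, which some B cells also carry, with 2 of 6 measured and Cd4 lower at both times. NK cell markers summed to at most 0.0777 CPM, with 0 of 3 measured. The part of other cells in the receptor values was not tested.

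Cxcr4, the receptor of Cxcl12, was higher at both times. At chromosome 1, 128588199 to 128592299, its level was 36.7 CPM in control, 124 CPM at 6 h and 138 CPM at 24 h. Both treated libraries stood well above control and close to each other. Cxcr4 was 3.39-fold higher at 6 h (3.22 to 3.57) and 3.77-fold higher at 24 h (3.57 to 3.99), and the step from 6 h to 24 h was 1.11-fold (1.07 to 1.16).

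Ackr3, an atypical receptor that binds Cxcl12 and removes it without G protein signalling, ran the other way. It had 58.9 CPM in control and 32.4 and 24.5 CPM after treatment. It was 1.82-fold lower at 6 h (1.72 to 1.92) and 2.40-fold lower at 24 h (2.21 to 2.61), a call not made with the deposited TPM. The TPM ratio of Cxcr4 to Ackr3 within a library was 0.710 in control, 4.36 at 6 h and 6.43 at 24 h. Among the pair that bind Cxcl12, the atypical one was thus the more abundant in control and Cxcr4 in both treated libraries. The count ratio changed 6.16-fold at 6 h (5.71 to 6.65) and 9.05-fold at 24 h (8.20 to 10.0). Of the 3 atypical receptors measured, 0 were called at 6 h, and 1 was higher and 1 lower at 24 h. Ackr2, a scavenger of inflammatory CC chemokines, had 5.64, 6.31 and 12.7 CPM and was 2.26-fold higher at 24 h (1.92 to 2.65).

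Cxcr5, the receptor of Cxcl13, had the highest TPM of the 10 in both treated libraries, within counting intervals of Cxcr4. It lies on chromosome 9 at 44511787 to 44526444. Its level was 98.3 CPM in control, 191 CPM at 6 h and 218 CPM at 24 h. At 6 h the fold was 1.94 (1.88 to 2.01), just short of the rule, and it passed with total counts (2.06-fold) and with the deposited TPM (2.17-fold). At 24 h it was 2.22-fold higher (2.13 to 2.30). Its expected counts were not whole in every library, a sign of reads split between genes. GENCODE M21 overlaps it by 110 bases with Bcl9l on the opposite strand. Bcl9l had 79.7, 113 and 132 CPM, and the part of shared reads in the Cxcr5 values was not tested.

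Ccr7, the receptor of Ccl19 and Ccl21, differed little between libraries. The gene is on chromosome 11, 99144199 to 99155077, with coding sequence in 3 exons. Its level was 132 CPM in control, 119 CPM at 6 h and 145 CPM at 24 h, so the control lay between the treated libraries. It was 1.11-fold lower at 6 h (1.07 to 1.15) and 1.09-fold higher at 24 h (1.05 to 1.14), and the direction at 6 h turned with the deposited TPM. With TPM its log2 ratio at 6 h was 0.01, where the median gene shifted up by 0.16. Follicle and T zone receptors were therefore set against each other within libraries. The TPM ratio of Cxcr5 to Ccr7 was 0.547 in control, 1.18 at 6 h and 1.11 at 24 h. The count ratio changed 2.15-fold at 6 h (2.06 to 2.26) and 2.03-fold at 24 h (1.92 to 2.14), a value that no library scaling alters.

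Ccr6, the receptor of Ccl20 that marks many memory B cells, was low and higher after treatment. On chromosome 17 (8236041 to 8258519), its level was 1.48 CPM in control (72 counts), 5.67 CPM at 6 h (365 counts) and 8.31 CPM at 24 h (241 counts). Both treated libraries were well above control. Ccr6 was 3.83-fold higher at 6 h (2.97 to 5.00) and 5.61-fold higher at 24 h (4.29 to 7.40).

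Cxcr3, the receptor of the interferon-induced chemokines Cxcl9, Cxcl10 and Cxcl11, had the lowest TPM of the 6 chemokine receptors among the 10 genes. The gene, on chromosome X at 101731535 to 101734147, had 11, 116 and 29 counts in the control, 6 h and 24 h libraries, which are 0.226, 1.8 and 0.999 CPM. The 6 h library was the highest. Cxcr3 was 7.97-fold higher at 6 h (4.29 to 16.4). At 24 h the ratio was 4.42 (2.14 to 9.80), but the 24 h library fell just short of both minimums, so it was not called. On the scale of log2(CPM + 1), which understates low genes, these folds were 2.29 and 1.63. The 24 h level was 1.8-fold under that at 6 h (1.19 to 2.81).

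S1pr3, a receptor that in B cells is best known from the marginal zone, was the 1 receptor called lower. It lies on chromosome 13 at 51408618 to 51422797. Its level was 23.7 CPM in control, 17.5 CPM at 6 h and 10.6 CPM at 24 h, the control being the highest. It was 1.36-fold lower at 6 h (1.25 to 1.47) and 2.23-fold lower at 24 h (1.97 to 2.54). Its log2 ratio at 24 h ranked 121 from the lowest of 10754. With the deposited TPM, which shifted the median gene up by 0.26 on the log2 scale, the 24 h fold was 1.86 and missed the rule. GENCODE M21 overlaps S1pr3 by 10048 bases with the noncoding gene Gm32834 on the opposite strand. Gm32834 has no row under that name in the deposited data, so its level is not known, and its part in the S1pr3 values was not tested. Reads of the pair cannot be told apart without the strand setting.

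S1pr2, which couples to G12 and G13 proteins and confines germinal centre B cells, was lower in the same order, by less than 2-fold. The gene is on chromosome 9, 20965952 to 20976793. Its level was 32.1 CPM in control, 26.9 CPM at 6 h and 21.8 CPM at 24 h, with folds of 1.19 lower at 6 h (1.11 to 1.28) and 1.47 lower at 24 h (1.34 to 1.62). S1pr3 over S1pr2 in the same library was 0.453 in control, 0.398 at 6 h and 0.298 at 24 h by TPM. The S1pr3 difference was thus the larger of the pair whatever the scaling, with the count ratio at 24 h 0.660 of that in control (0.564 to 0.771).

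S1pr1, the egress receptor, was close to level. Its locus is chromosome 3, 115710433 to 115715055. Its level was 12.2 CPM in control, 11.8 CPM at 6 h and 10.5 CPM at 24 h. It was 1.03-fold lower at 6 h (0.924 to 1.15, an interval that holds 1) and 1.16-fold lower at 24 h (1.01 to 1.34). TPM turned the direction at both times, and total counts did so at 6 h. The log2 ratios with TPM were 0.11 and 0.05, where the median gene shifted up by 0.16 and 0.26. With total counts the 6 h log2 ratio was 0.04, where the median gene shifted up by 0.08. Cxcr4 over S1pr1, a retention receptor over the exit receptor, was 5.23 in control, 18.3 at 6 h and 23.0 at 24 h by TPM. The count ratio changed 3.49-fold at 6 h (3.10 to 3.93) and 4.39-fold at 24 h (3.78 to 5.10).

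S1pr4, a receptor largely limited to blood cells, had the lowest TPM of the 4 S1P receptors among the 10 genes. The gene, on chromosome 10 at 81497745 to 81500137, had 28, 79 and 38 counts in control, 6 h and 24 h, or 0.576, 1.23 and 1.31 CPM. The ratios were 2.13 at 6 h (1.37 to 3.41) and 2.27 at 24 h (1.36 to 3.85), so the lower bounds lay under 2-fold. Neither call was made on the scale of log2(CPM + 1), nor the 6 h call with the deposited TPM, where its level missed the minimum.

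**Figure D4:**
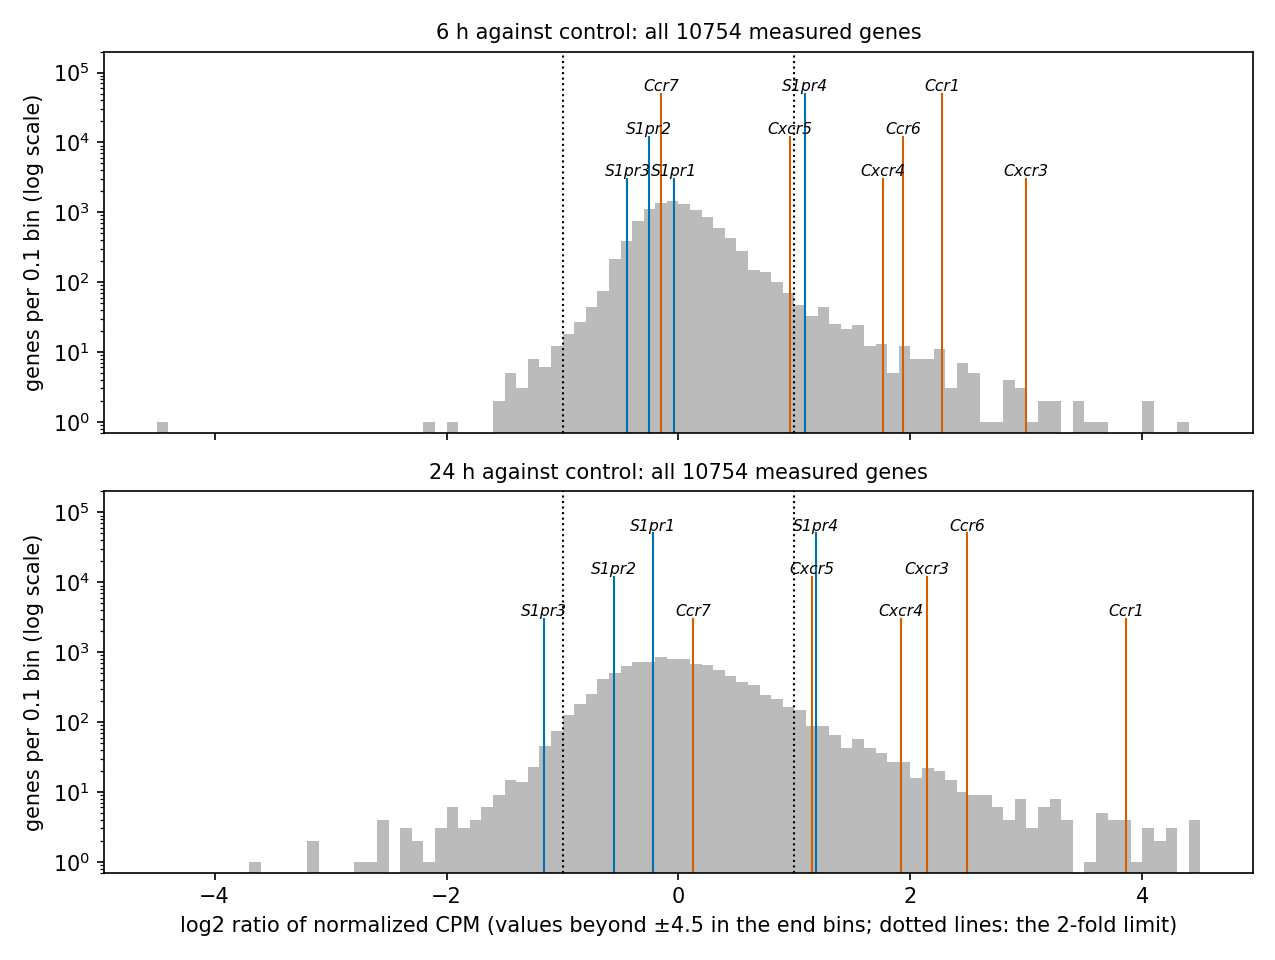
Distribution of the log2 ratio over the 10754 measured genes at 6 h and 24 h against control (bars, number of genes on a log scale), with the 10 receptor genes marked. Most genes lie between the 2-fold lines, while Ccr1, Cxcr4 and Ccr6 lie in the right tail at both times and S1pr3 left of -1 at 24 h.

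Beyond the 10, 12 other signalling receptors of these families (chemokine receptors and S1pr5) were read from a list, of which 4 were measured. At 6 h, 1 was called higher and at 24 h 3, with 0 lower at either time, and their median log2 ratio was 0.43 and 1.39. Cxcr6 and Cx3cr1 passed the minimum only through treated libraries. Cx3cr1, the fractalkine receptor, had 3, 68 and 41 counts, a ratio of 22.9 at 24 h (7.30 to 116) at under 1 TPM. Ccr10, a receptor of mucosal plasma cells, had 1.56, 1.18 and 0.793 CPM, 1.97-fold lower at 24 h (1.22 to 3.30), a call made only with DESeq2 size factors. The 3 called at 24 h had no more than 3.76 CPM in any library.

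Most ligands of the receptors were at or near 0 counts in these cells. Of 16 ligands listed, 5 were measured, with a median log2 ratio of -0.43 at 24 h. Ccl20, Ccl21a, Cxcl9, Cxcl11, Cxcl13 and Ccl8 had 0 counts in each library, which at 3 counts allows up to 0.0617 (control), 0.0466 (6 h) and 0.103 CPM (24 h). Ccl4, an inflammatory CC chemokine, had 3.60, 2.86 and 1.07 CPM and was 3.37-fold lower at 24 h (2.29 to 5.11). Ccl3, a Ccr1 ligand, had 5.88, 5.81 and 4.38 CPM and was not called. Ccl5, which binds Ccr1, had 6, 16 and 31 counts and a ratio of 8.65 at 24 h (3.56 to 25.4), and passed the minimum only through the 24 h library. Mif, a cytokine that also binds Cxcr4, had 546, 415 and 258 CPM and was 2.12-fold lower at 24 h (2.06 to 2.17), but not with total counts, with TPM or once the length trend was removed. In all, 1 ligand was called higher and 2 lower at 24 h, and 0 at 6 h.

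Genes that make, export or break down S1P were close to level. Of 8 measured, 0 were called at 6 h and 1 was called higher at 24 h, with a median log2 ratio of -0.08 and -0.05 that turned sign with the scaling. The gene called was Spns2, an S1P exporter, with 25, 58 and 31 counts. It passed the minimum only through the 24 h library and was not called with the deposited TPM. Sgpl1, the lyase that degrades S1P, had 113, 138 and 135 CPM, and the kinase Sphk2 had 62.5, 54.7 and 55.9 CPM, with part of its reads split between genes.

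Of 9 measured genes known to act on S1pr1 or on homing receptor genes, Bach2 was the 1 called, and the median log2 ratio was 0.32 at 6 h and 0.47 at 24 h. Bach2, a transcription repressor of B cells, had 12.3, 37.2 and 61.4 CPM, 3.02-fold higher at 6 h (2.76 to 3.30) and 4.97-fold higher at 24 h (4.53 to 5.46). Cd69, which binds S1pr1 and takes it off the surface, had 52.9, 65.3 and 67.2 CPM. Irf4, a transcription factor of activated B cells, had 197, 312 and 303 CPM. Klf2, which drives S1pr1, was below the minimum with 40, 32 and 13 counts. No other of these genes differed 2-fold.

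Of 10 measured G protein alpha subunits, 1 was called higher at each time, and the median log2 ratio was 0.11 and 0.20. Gna15, which couples many receptors to phospholipase C, had 3.81, 9.08 and 14.3 CPM, 3.76-fold higher at 24 h (3.15 to 4.49). Gnai2, the main Gi subunit of chemokine receptors in lymphocytes, had 346, 380 and 490 CPM. Gnas, the Gs subunit, had 874, 936 and 1107 CPM. Of 26 genes of migration signalling below Gi, 26 were measured, 0 were called at 6 h and 1 at 24 h, with a median of 0.08 and 0.28. The gene called was Pik3r6, a regulatory subunit of PI3K gamma, with 106, 186 and 255 CPM. Coro1a, an actin regulator that lymphocytes need for trafficking, had 372, 398 and 457 CPM, and the GTPase Cdc42 had 355, 341 and 312 CPM.

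Rgs proteins, which speed up GTP hydrolysis and so shorten the signal of these receptors, were read next. Of 9 measured, 3 were called higher at 6 h and 3 at 24 h, with 0 lower and a median log2 ratio of 0.52 and 0.71. Rgs16 had 11, 287 and 83 counts, 19.7-fold higher at 6 h (10.9 to 39.9) and 12.6-fold at 24 h (6.71 to 26.3), and passed the minimum only through treated libraries. Rgs12 had 9.32, 19.6 and 43.7 CPM and was called at both times, and Rgs2, with 4.71, 6.78 and 9.93 CPM, was called at 24 h. Rgs1, which dampens B cell migration to chemokines, had 11.6, 26.5 and 14.9 CPM, 2.28-fold higher at 6 h (2.07 to 2.51) and not called at 24 h. Rgs13, a germinal centre B cell member of the family, had 323, 274 and 195 CPM, 1.66-fold lower at 24 h (1.61 to 1.71). Members of this family thus lay on both sides of control. Of 7 measured receptor kinases and arrestins, 0 were called at 6 h and 2 were higher at 24 h. Those were Arrdc3, an arrestin-like adaptor, at 2.45-fold (2.17 to 2.78) and Grk4, a receptor kinase, at 2.94-fold (1.89 to 4.66), which passed the minimum only through treated libraries. Grk2, the kinase that turns off Cxcr4 among others, had 406, 426 and 490 CPM.

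Other receptors that place B cells, and the enzymes that make or remove their ligands, gave 1 gene called higher at 6 h and 5 at 24 h of 13 measured, with 0 lower and a median log2 ratio of 0.30 and 0.81. Gpr183, the oxysterol receptor known as EBI2 that brings B cells to the follicle edge, had 5.35, 11.3 and 12.6 CPM, 2.11-fold higher at 6 h (1.83 to 2.44) and 2.36-fold at 24 h (2.01 to 2.78). Gpr34, a lysophosphatidylserine receptor, had 11.0, 18.0 and 39.6 CPM, 3.58-fold higher at 24 h (3.23 to 3.98). Ptger4, a prostaglandin E receptor, was 2.58-fold higher at 24 h (2.33 to 2.87), and Gpr18, a lipid receptor, 2.34-fold (2.12 to 2.58). Gpr132 and Gpr65, which sense lysolipids or protons, had 76.7, 65.6 and 65.9 CPM and 32.3, 27.3 and 22.2 CPM, and neither was called.

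**Figure D5:**
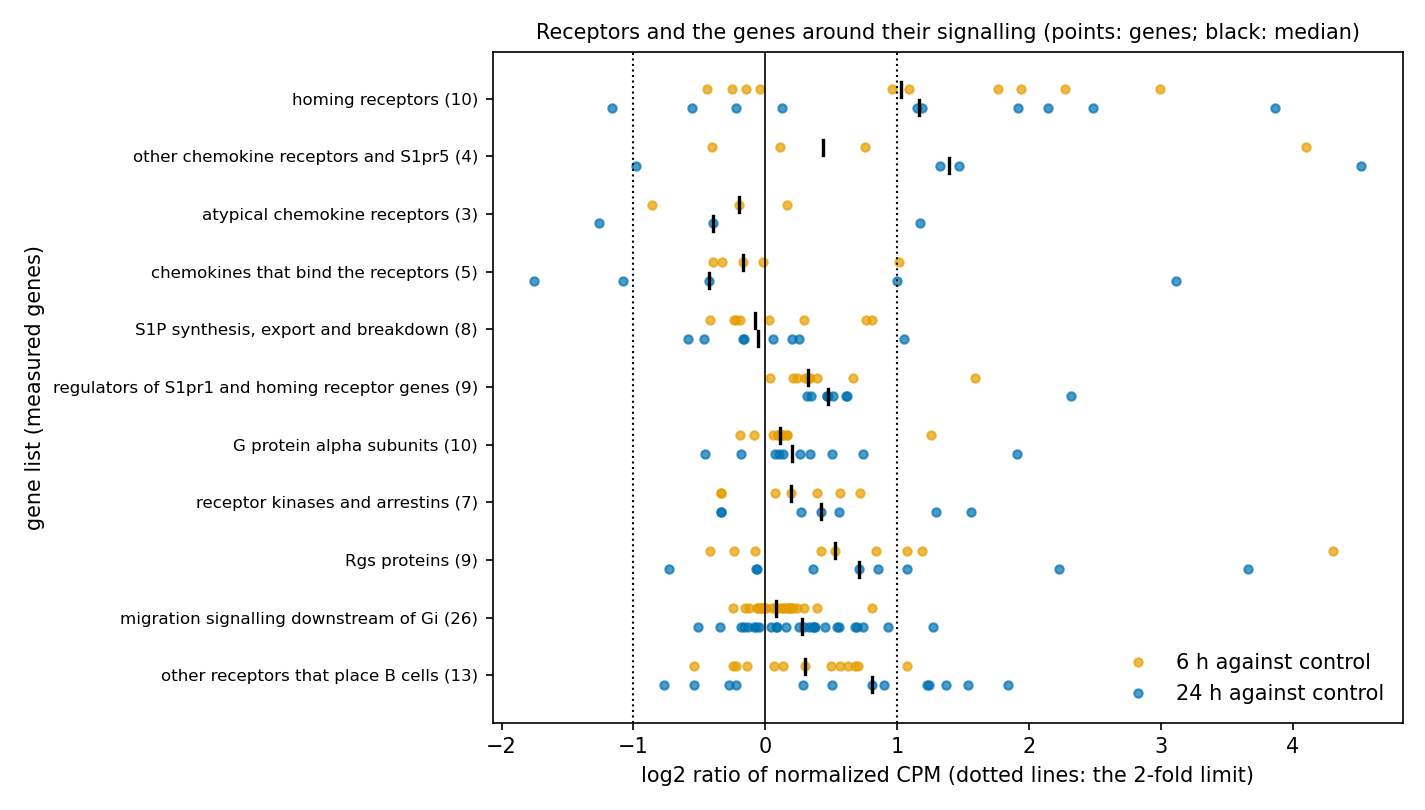
Log2 ratio (24 h against control and 6 h against control) of each measured gene, 1 row per gene list, with the list's median marked. The receptor row spreads from -1.16 to 3.86 at 24 h, while the rows of S1P metabolism and migration signalling lie mostly within the 2-fold lines.

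By the log2 ratios of CPM + 1 at both times, some other genes had a pattern close to that of a receptor. The measure was the distance between the pairs of ratios, over 2 comparisons that share the control and so rest on 3 libraries. Nearest to Ccr1 was Rps6ka2 (2.04, 9.39 and 33.8 CPM) at a distance of 0.43, then Rab37 at 0.52. Nearest to Cxcr4 was Gpr4 (1.89, 9.13 and 9.51 CPM) at 0.08, to Cxcr5 Mfsd6l at 0.02 and to S1pr3 Mif at 0.03. The CPM + 1 scale understates low genes such as Gpr4, so genes near by this measure can differ in fold. Receptors with ratios near those of many genes had closer neighbours, such as S1pr1 with Thumpd2.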

How the data were processed

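The 3 libraries were poly(A) mRNA sequenced for 50 cycles, per the labels' protocols. CASAVA 1.8.2, STAR, RSEM, bedtools and the build mm10 are named in the submitters' processing notes. For the other versions, the annotation and the strand setting, nothing is given in the sources used here. Each deposited table lists, per the file headers, expected count, TPM and FPKM. Deposited expected counts are RSEM estimates that split shared reads, and were rounded here. The deposited TPM values served to compare genes per length. FPKM values, also deposited, were left out.

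Counts were scaled by TMM factors with edgeR 4.0.16 in R 4.3.3, and the size rule and intervals are given beside the results. A count under 3 was set to 3 counts in a ratio, but not in its interval. The alternatives were total counts, DESeq2 1.42.0 size factors, scaling by the upper quartile, deposited TPM, no minimum, a minimum of 5 CPM, limits of 1.5-fold and 3-fold, a length trend removed by lowess, and the log2 ratio of CPM + 1. Total counts shifted the median gene by 0.08 at 6 h and 0.16 at 24 h on the log2 scale, and TPM by 0.16 and 0.26. Ratios, directions and calls under those scalings are given with that shift left in them.

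The 10 receptors, the 16 other lists and the rules were chosen with earlier results of these data known. Each receptor is named. From each pathway list, up to 4 genes past the size rule were named by their log2 ratio of CPM + 1 at 24 h, and up to 2 by their TPM in control. Klf2, Bcl9l, Gm32834 and the genes around Ccr1 were named besides, and chemokines at 0 counts by that level. Up to 2 genes nearest in pattern were taken per receptor among genes with at least 5 CPM in a library. Positions and windows are RefSeq's for GRCm38.p6, the assembly of mm10, matched by symbol. Protein sequences were not used here. Some results are not reported here.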

Additional observations from a re-analysis of the deposited data

Results flagged for a closer look

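Ccr7 stood on opposite sides of control at the 2 times. Its log2 ratio was -0.15 at 6 h and 0.13 at 24 h. The difference between the times was not tested, since each time is 1 library, and both ratios use the same control. Both are far under the 2-fold rule. The 6 h direction turned with the deposited TPM, which shifted the median gene up by 0.16 on the log2 scale.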

How the results depend on the processing

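No paired analysis was possible because each group has 1 library and the labels give no replicate numbers, and for the same reason no library could be left out. Over 180 receptor ratios recomputed under the alternatives, 141 stayed within their counting interval and kept their direction. Another 39 moved beyond it or turned direction without having been called. S1pr1 at 6 h turned with total counts and with TPM but stayed within its interval. In all, 0 were counted as reversed, a verdict given only to called ratios. Receptors called higher at 6 h numbered 5, and 3 with a minimum of 5 CPM. At 24 h, 5 were higher and 1 lower. With a 3-fold limit these were 3 and 0, and with deposited TPM 0 were lower. The median log2 ratio of the 10 at 24 h, 1.17, was 0.63 on the CPM + 1 scale, and that at 24 h against 6 h, 0.12, was 0.23 with TPM. With a 1.5-fold limit, 2 were lower at 24 h against 6 h.

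Over all measured genes, 258 were higher and 39 lower at 6 h, 797 and 217 at 24 h, and 202 and 40 at 24 h against 6 h. At 6 h these became 650 and 210 with no minimum, 153 and 22 with 5 CPM, 728 and 230 at 1.5-fold, 88 and 4 at 3-fold, 162 and 20 on the CPM + 1 scale, and 21 lower with TPM. At 24 h they became 1405 higher with no minimum, 502 higher with 5 CPM, 1808 and 1274 at 1.5-fold, and 313 and 37 at 3-fold, while 118 were lower with total counts and 76 with TPM. At 24 h against 6 h they became 2630 and 117 with no minimum, 88 and 17 with 5 CPM, 684 and 227 at 1.5-fold, 42 and 6 at 3-fold, and 67 and 11 on the CPM + 1 scale. Of called genes at 24 h, 78.6% were higher, against 90.1% with total counts and 94.0% with TPM. Cxcr3 and S1pr4, with 11 and 28 counts in control, have the widest intervals against control. Removing the minimum adds genes with few counts, while counts under 3 were still set to 3 in a ratio. At 24 h against 6 h, a gene with no more than 3 counts in either library thus has a ratio of 2.22, past the 2-fold limit. A higher or lower limit changes the number of called genes by its construction. Total counts move each ratio of a comparison by the same amount, also by construction. The cause of the other shifts was not tested.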
